A study of Rattus norvegicus with 8 samples.

Results

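A list of 32 genes of the cell division cycle, chosen by gene symbol, was followed through liver RNA-seq of wild-type Sprague-Dawley rats on a high fat diet (HFD) or a normal diet (ND). Of the 32 symbols, 31 had a row among the 32545 genes measured; Ccnb2 had none and is not analysed here. HFD supplied 41% of calories as fat, 43% as carbohydrate and 17% as protein, and ND supplied 8.5% as fat, 59.6% as carbohydrate and 20.3% as protein. The labels give 24 weeks of feeding but an age of about 22 weeks, a difference that could not be resolved. The liver libraries were 5 from HFD and 3 from ND, out of 12 rats per diet in the study of raised blood triglycerides. A library is also called a liver below, although the labels do not say how samples relate to animals. No transgene or drug is named for either group.

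The cell division cycle runs from G1, in which D and E cyclins commit a cell to copying its DNA, through S phase, in which the MCM helicase opens the DNA and PCNA holds the polymerases on it, to mitosis, driven by cyclin A or B with CDK1 and by the Polo and Aurora kinases. Most hepatocytes of an adult liver rest outside the cycle and can re-enter it after loss of tissue, while Kupffer cells, the resident macrophages, and incoming immune cells can divide on their own. Genes of G1 and of DNA synthesis also have uses outside division, such as DNA repair, whereas mitotic genes are transcribed mainly in cycling cells. In whole liver, more cycling cells and more RNA per cycling cell cannot be told apart, and the same holds for any cell type named here.

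The libraries held 12678616 to 36152937 counts and fell into a deep set (HFD-1, HFD-2, ND-1 and ND-3, at least 30501673 counts) and a shallow set (HFD-3, HFD-4, HFD-5 and ND-2, at most 18401981). Hepatocyte identity was clear, with albumin between 38813 and 43759 FPKM in all 8. HFD-3 stood apart in the genes followed here and in all 11 Kupffer cell markers, as described with the results, so the counts that lead are given with and without it. ND-3 stood apart in clock genes: Arntl, an activator of the clock, was at 13.5 FPKM in ND-3 and at 0.384 to 1.57 FPKM in the other 7 libraries, and Dbp, an output gene, at 1.55 FPKM against 15.9 to 36.5 FPKM. The sources used here do not state the time of sampling.

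No member differed between diets in edgeR's quasi-likelihood test after Benjamini-Hochberg adjustment over all 14148 genes tested. Of the 31 members, 23 passed the filter on low counts and 0 of 23 passed an adjusted p of 0.05, where 0.00707% of all genes (1 gene) did. At an unadjusted p of 0.05 the count was 1 of 23 (Kif11), against 5.71% of all genes in either direction and 2.88% higher, and by DESeq2, which gave 21 members an adjusted p, 1 (Kif11) was under 0.05, against 0.97% of all genes. Fitted values were higher in HFD for 19 of 23 members and their log2 fold changes had a median of 0.30, against 51.2% and 0.0059 over all genes. Without HFD-3, 11 of 23 were higher and the median was -0.000129. Leaving out ND-3 gave 15 of 24 and a median of 0.065, and leaving out ND-2 gave 25 of 27 and 0.659. The count filter was applied anew in each fit, so the members tested changed and these medians are not like for like. The other 8 members had too few counts for the test and are described by their counts. With no filter, 0 of 31 members passed, where 0.0838% of genes did.

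**Figure D1:**
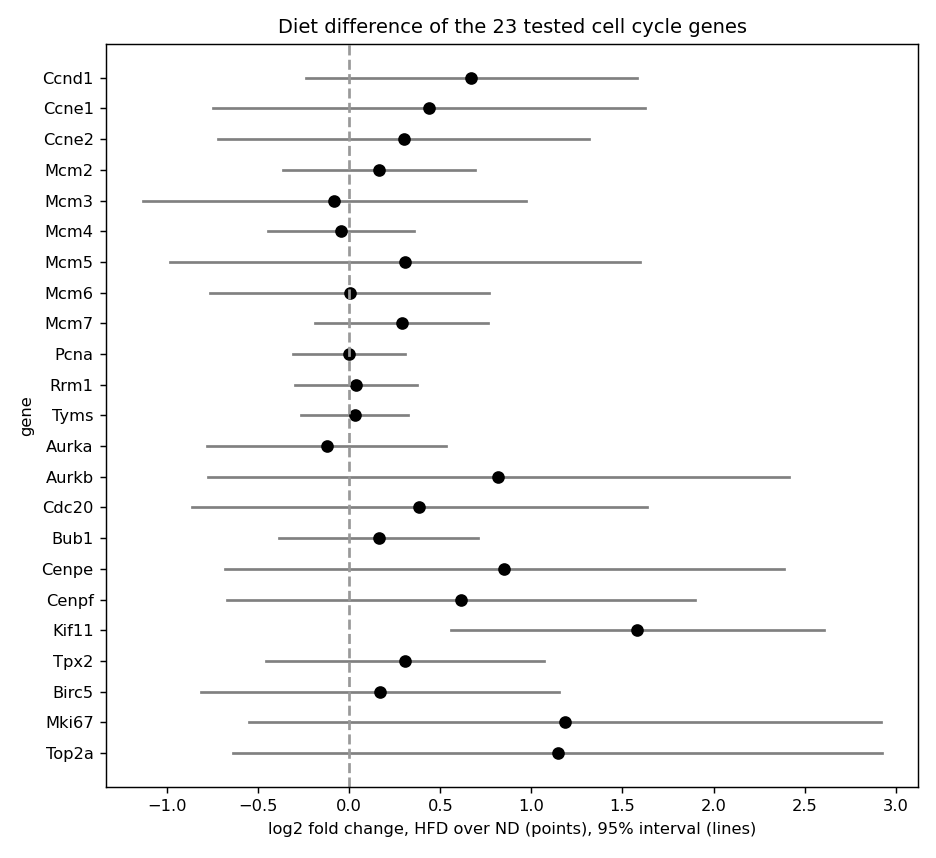
Fitted log2 fold change of HFD over ND (horizontal axis) for the 23 tested members, with 95% intervals, from all 8 libraries. Only the interval of Kif11 lies above 0. Without HFD-3, a fit that is not drawn, the estimates of Mki67 and Top2a were 0.11 and 0.03.

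Among the cyclins of G1 and S phase, Ccnd1 was the most abundant, and its levels overlapped between diets. Ccnd1, cyclin D1, the partner of CDK4 and CDK6 that answers growth signals, was at 6.03, 2.84, 7.43, 4.64 and 3.40 FPKM in HFD-1 to HFD-5, against 4.05, 3.68 and 1.31 FPKM in ND-1 to ND-3. The 3 livers HFD-1, HFD-3 and HFD-4 were above every ND liver, HFD-2 and HFD-5 were within the ND range, and ND-3 was the lowest of all 8. The means were 4.87 ± 1.89 FPKM in HFD (SD, n = 5) and 3.01 ± 1.49 FPKM in ND (SD, n = 3), and the log2 fold change was 0.67 (95% interval -0.24 to 1.58, edgeR adjusted p = 0.975). Ccne1, cyclin E1, which with CDK2 starts DNA replication, was at 0.922, 0.550, 0.808, 0.613 and 0.946 FPKM in the HFD livers, against 0.736, 0.888 and 0.117 FPKM in the ND livers. ND-3 again held the lowest value, and without ND-3 the log2 fold change of Ccne1 was -0.08 in place of 0.44. Ccne2, a second cyclin E, was at 0.466, 0.844, 0.373, 0.521 and 0.682 FPKM in HFD, against 0.813, 0.208 and 0.314 FPKM in ND, with HFD-3 inside the range of the rest. Ccne2 overlaps Ints8 in the genome, and without the use of strand in counting, reads of these genes cannot be told apart.

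**Figure D2:**
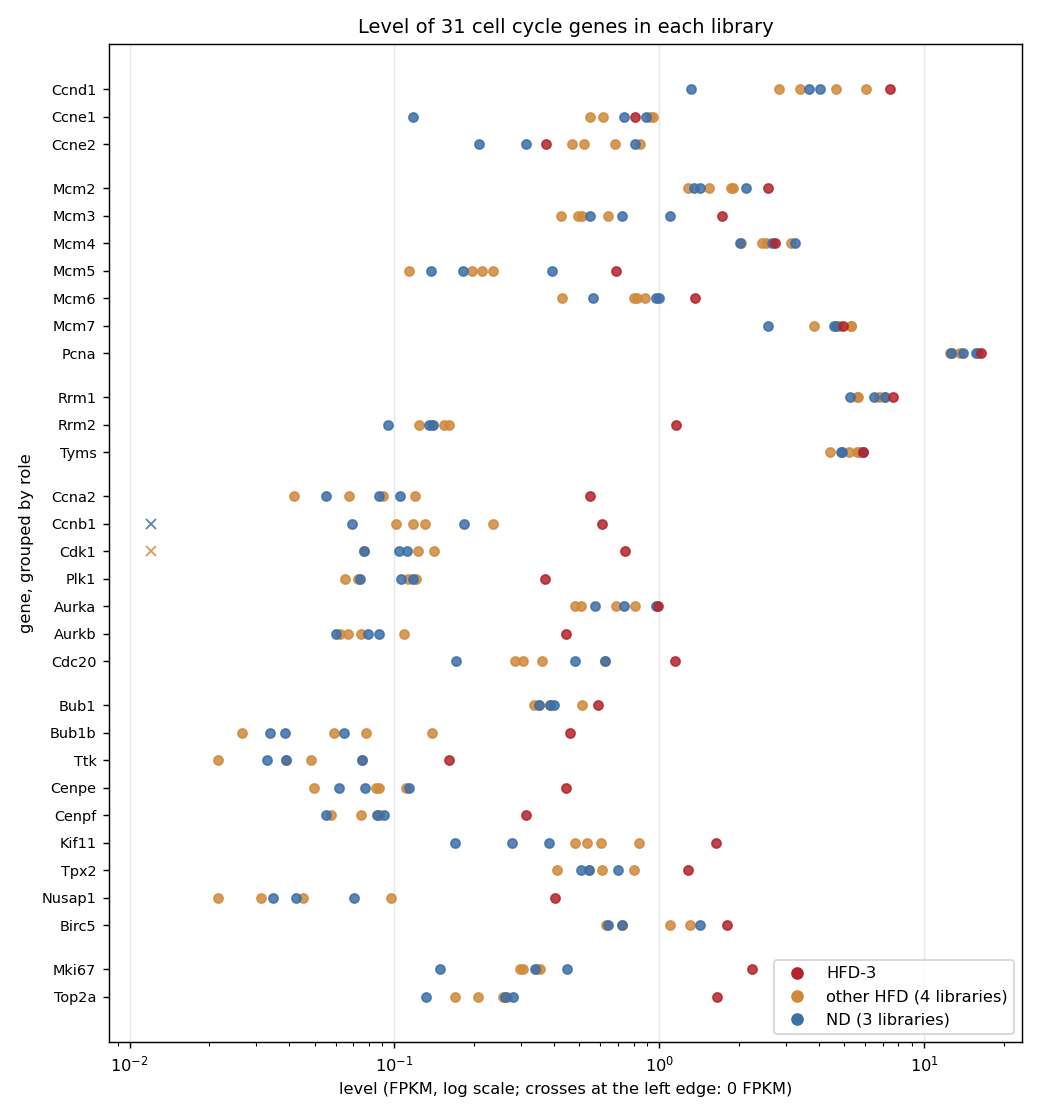
FPKM on a log axis for the 31 members, grouped by role, with HFD libraries and ND libraries as separate markers and HFD-3 marked on its own; crosses at the left edge are libraries at 0 FPKM. HFD-3 lies to the right of the other 7 libraries in the mitotic genes, while the points of Pcna, Rrm1 and Tyms lie close together.

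The replication helicase and clamp overlapped between diets in all 7 genes, of which 4 had higher and 3 had lower fitted values in HFD. Pcna, the sliding clamp, was at 13.7, 16.0, 16.4, 12.5 and 12.7 FPKM in HFD-1 to HFD-5, against 15.7, 14.0 and 12.6 FPKM in ND-1 to ND-3. The groups overlapped, and the log2 fold change of -0.002 had an interval of -0.31 to 0.31. Mcm7, an MCM subunit, was at 3.85, 4.76, 4.94, 5.28 and 5.29 FPKM in HFD, against 4.55, 4.64 and 2.57 FPKM in ND (log2 fold change 0.29, interval -0.19 to 0.76). Reads of Mcm7 could include those of the microRNA genes it hosts, but these had few counts. Over the 8 libraries Mir93, Mir25 and Mir106b had 1, 12 and 0 counts, against 2088 for Mcm7. Mcm4, another subunit, was at 2.53, 3.15, 2.75, 2.44 and 2.03 FPKM in HFD, against 2.67, 3.26 and 2.02 FPKM in ND, and the HFD range lay inside the ND range. Mcm2 was at 1.87, 1.90, 2.58, 1.55 and 1.28 FPKM in HFD, against 1.43, 2.13 and 1.36 FPKM in ND, with HFD-3 the highest.

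The other subunits of the helicase were lower in level, and HFD-3 led in each. Mcm3 was at 0.512, 0.643, 1.72, 0.495 and 0.426 FPKM in HFD, against 0.726, 1.10 and 0.548 FPKM in ND. Mcm5 was at 0.197, 0.236, 0.690, 0.215 and 0.114 FPKM in HFD, against 0.181, 0.393 and 0.137 FPKM in ND. Mcm6 was at 0.824, 0.886, 1.37, 0.800 and 0.428 FPKM in HFD, against 0.977, 1.00 and 0.562 FPKM in ND. In all 3 the other 4 HFD livers lay at or below the highest ND liver. Summed over the 6 MCM genes and Pcna, CPM was 43.9, 51.6, 59.8, 44.5 and 44.0 in HFD, against 50.8, 51.4 and 36.4 in ND.

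Deoxynucleotide synthesis was divided between abundant genes that hardly varied and 1 rare gene that did. Rrm1, the large subunit of ribonucleotide reductase, was at 7.09, 6.77, 7.62, 5.59 and 5.65 FPKM in HFD, against 7.15, 6.50 and 5.26 FPKM in ND (log2 fold change 0.04, interval -0.30 to 0.37). Tyms, which makes thymidylate, was at 5.57, 5.69, 5.90, 5.19 and 4.40 FPKM in HFD, against 4.86, 5.87 and 4.88 FPKM in ND (log2 fold change 0.03, interval -0.26 to 0.32). Both genes varied little among the 8 livers, and their intervals lie close around a log2 fold change of 0. Rrm2, the small subunit that is made in S phase, was at 0.154, 0.124, 1.15, 0.161 and 0.139 FPKM in HFD, against 0.0943, 0.135 and 0.140 FPKM in ND. It rested on 6, 5, 18, 3 and 3 counts in HFD, against 4, 2 and 5 counts in ND, and only HFD-3 left the common level.

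The kinases and cyclins that start mitosis were rare in these livers, and HFD-3 had the highest level of all 8 for each of the 7. Aurka, Aurora kinase A, which matures the spindle poles, was the most abundant of them in the ND livers. It was at 0.688, 0.812, 0.989, 0.481 and 0.507 FPKM in HFD, against 0.739, 0.970 and 0.570 FPKM in ND, so HFD-3 barely exceeded ND-2. Cdc20, which activates the APC/C ubiquitin ligase that ends metaphase, was at 0.627, 0.360, 1.14, 0.284 and 0.306 FPKM in HFD, against 0.172, 0.622 and 0.481 FPKM in ND. HFD-3 was the highest, HFD-1 and ND-2 were nearly equal, and ND-1 was the lowest. Aurkb, Aurora kinase B of the chromosomal passenger complex, was at 0.0746, 0.0666, 0.446, 0.108 and 0.0623 FPKM in HFD, against 0.0793, 0.0603 and 0.0877 FPKM in ND. Apart from HFD-3, the Aurkb levels of the diets were intermingled.

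The remaining members of this group had too few counts for the test. Cdk1, the kinase of mitotic entry (chromosome 20, 20576377 to 20591549, Rnor_6.0), had 10, 9, 21, 0 and 3 counts in HFD-1 to HFD-5, against 8, 3 and 5 counts in ND-1 to ND-3. HFD-3 had the most counts although it was sequenced less deeply than HFD-1, HFD-2, ND-1 and ND-3, and the 0 in HFD-4 allows up to 3 counts, counting error only. Ccna2, cyclin A2, had 12, 7, 22, 2 and 5 counts in HFD, against 6, 4 and 8 counts in ND, and it overlaps Exosc9. Ccnb1, cyclin B1, had 7, 13, 13, 3 and 3 counts in HFD, against 4, 0 and 9 counts in ND. Plk1, the Polo kinase, had 9, 5, 11, 4 and 3 counts in HFD, against 6, 3 and 8 counts in ND. In HFD-3 the level of Cdk1 was 0.742 FPKM, of Ccna2 0.550, of Ccnb1 0.609 and of Plk1 0.370, and these were 3.50 to 7.14 times the median of the other 7 libraries. Summed CPM of the 7 genes was 4.19, 3.82, 11.6, 2.72 and 2.97 in HFD, against 3.26, 4.34 and 3.67 in ND. Only HFD-3 left the range of 2.72 to 4.34 CPM that the other libraries shared.

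Kif11 was the 1 member whose levels separated the diets. Kif11, the kinesin that pushes spindle poles apart (chromosome 1, 256035866 to 256088299, Rnor_6.0), was at 0.838, 0.601, 1.64, 0.533 and 0.482 FPKM in HFD-1 to HFD-5, against 0.170, 0.383 and 0.277 FPKM in ND-1 to ND-3. All 5 HFD livers were above all 3 ND livers. Such a gap in CPM was found for 1 of 23 tested members (4.35%), near the 3.91% of all genes with ranges that do not overlap (2.01% with HFD higher). The means were 0.819 ± 0.478 FPKM in HFD (SD, n = 5) and 0.277 ± 0.107 FPKM in ND (SD, n = 3). The log2 fold change was 1.58 with an SE of 0.46 (interval 0.56 to 2.60), and the edgeR adjusted p was 0.51, so the gene did not pass. DESeq2 gave Kif11 an adjusted p of 0.0454, and edgeR without HFD-3 gave a log2 fold change of 1.20 and an adjusted p of 0.455. Within the deep set mean CPM of Kif11 was 3.35 in HFD (n = 2) and 1.08 in ND (n = 2). Within the shallow set it was 4.17 in HFD (n = 3) and 1.75 in ND (n = 1), and this HFD mean was raised by HFD-3. The shallow libraries HFD-4 and HFD-5 were at 0.533 and 0.482 FPKM, against 0.383 FPKM in ND-2.

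**Figure D3:**
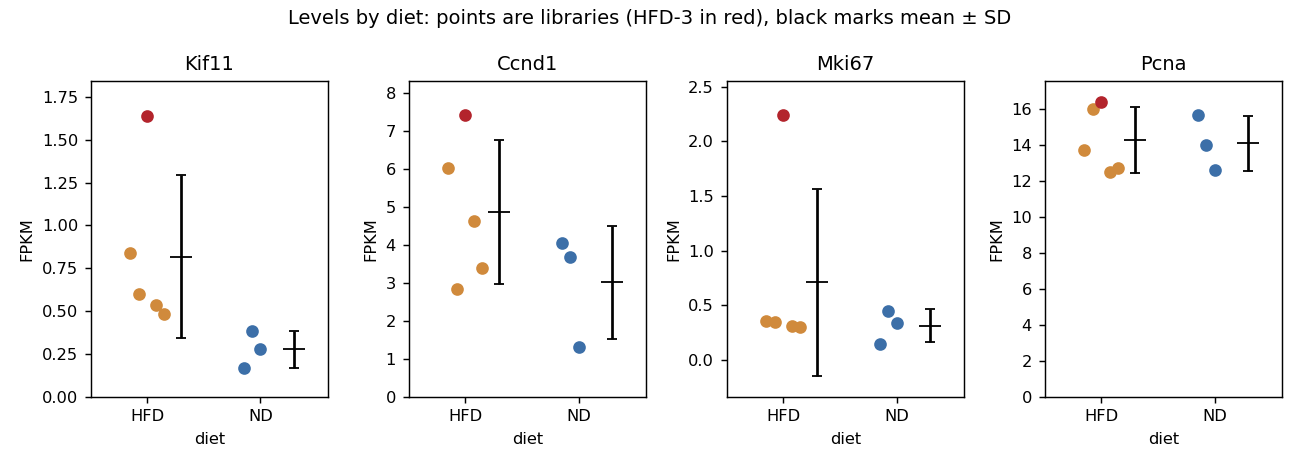
FPKM in each library for 4 members, HFD left of ND, with points for single libraries, HFD-3 in red, and black marks for the mean ± SD. All 5 HFD livers lie above the 3 ND livers for Kif11, while for Mki67 a single HFD liver at 2.24 FPKM lies above the rest.

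The other spindle and kinetochore genes shared the high value of HFD-3 but not the separation of the diets. Tpx2, which activates Aurora A on spindle microtubules, was at 0.802, 0.608, 1.28, 0.545 and 0.412 FPKM in HFD, against 0.543, 0.702 and 0.506 FPKM in ND. Birc5, survivin of the chromosomal passenger complex, was at 1.10, 0.632, 1.81, 0.722 and 1.31 FPKM in HFD, against 1.43, 0.723 and 0.638 FPKM in ND. Bub1, a kinase of the spindle checkpoint, was at 0.388, 0.510, 0.586, 0.337 and 0.351 FPKM in HFD, against 0.388, 0.351 and 0.401 FPKM in ND. HFD-3 was the highest in these 3 genes, by modest amounts, and ND livers lay among the other HFD livers.

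The remaining kinetochore and spindle genes were low in every library other than HFD-3. Cenpe, a kinesin that moves chromosomes to the spindle equator, was at 0.110, 0.0876, 0.444, 0.0497 and 0.0856 FPKM in HFD, against 0.0617, 0.114 and 0.0774 FPKM in ND. Cenpf, a kinetochore protein that accumulates late in the cycle, was at 0.0746, 0.0577, 0.314, 0.0877 and 0.0864 FPKM in HFD, against 0.0549, 0.0862 and 0.0912 FPKM in ND. In both, the 7 libraries other than HFD-3 occupied a narrow common range. Nusap1, which bundles spindle microtubules, had 4, 6, 30, 4 and 10 counts in HFD, against 7, 3 and 12 counts in ND. Bub1b, the checkpoint protein BUBR1, had 8, 11, 25, 9 and 2 counts in HFD, against 5, 2 and 8 counts in ND. Ttk, the checkpoint kinase MPS1, had 3, 7, 9, 5 and 3 counts in HFD, against 5, 4 and 5 counts in ND. None of these 3 was tested, and each had its highest count in HFD-3. Summed over the 9 genes of this group, CPM was 11.6, 9.79, 27.9, 8.97 and 9.37 in HFD, against 7.68, 8.84 and 8.01 in ND.

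The proliferation marker Mki67 and topoisomerase II alpha showed the same pattern at higher counts. Mki67, which encodes Ki-67, a coat of mitotic chromosomes (chromosome 1, 207993895 to 208020454, Rnor_6.0), was at 0.356, 0.347, 2.24, 0.306 and 0.297 FPKM in HFD, against 0.148, 0.447 and 0.338 FPKM in ND. The other 4 HFD livers lay inside the ND range and HFD-3 lay far above it. The log2 fold change was 1.18 (interval -0.55 to 2.92, edgeR adjusted p = 0.993) and was 0.11 without HFD-3. Top2a, which untangles replicated DNA, was at 0.256, 0.266, 1.65, 0.169 and 0.206 FPKM in HFD, against 0.131, 0.262 and 0.280 FPKM in ND. Its log2 fold change was 1.14 and was 0.03 without HFD-3. Their summed CPM was 5.05, 5.02, 32.2, 4.02 and 4.46 in HFD, against 2.40, 5.87 and 5.16 in ND.

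**Figure D4:**
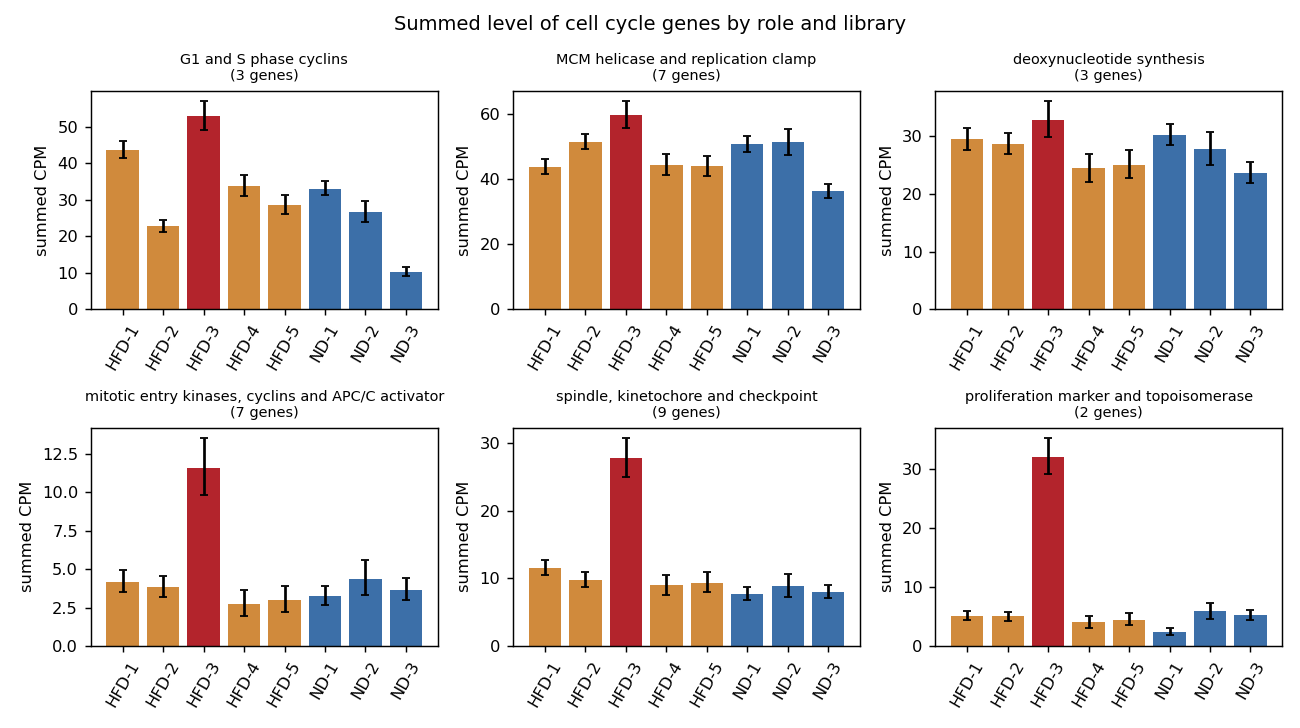
Summed CPM of the members of each role in each library, HFD left of ND, with exact Poisson 95% intervals that cover counting error only. HFD-3 reaches 32.2 CPM for Mki67 and Top2a together, where the other 7 libraries lie between 2.40 and 5.87 CPM.

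Across all members, HFD-3 had the highest CPM of the 8 libraries in 26 of 31, and in 18 of the 23 tested, against 17.9% of all tested genes. The members were chosen with earlier results of these data known, so the shares given here are descriptions. Of the other 5 members, 2 peaked in HFD-5, 2 in ND-1 and 1 in ND-2, and of these Pcna peaked in ND-1 in CPM but in HFD-3 in FPKM. HFD-3 was over 3 times the median of the other 7 libraries in 17 of 31 members and in 9 of the 23 tested, against 2.69% of all tested genes. The size of the ratio went with the level of the gene. The 7 members with a median of at least 1 FPKM in the other 7 libraries had ratios of 1.06 to 2.02, the 12 members between 0.2 and 1 FPKM had 0.716 to 6.61, and the 12 members under 0.2 FPKM had 3.50 to 9.54. On the FPKM scale the excess of HFD-3 over that median was 0.221 to 3.75 in the most abundant tier, -0.148 to 1.90 in the middle tier and 0.122 to 1.01 in the rarest. The 8 untested members together had 149 counts in HFD-3, which is 11.1 CPM (exact Poisson 95% interval 9.36 to 13.0), and 1.30 to 1.99 CPM in each of the other 7 libraries. Summed over all members, CPM in HFD was 1.25 times that in ND, and 1.09 times without HFD-3.

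**Figure D5:**
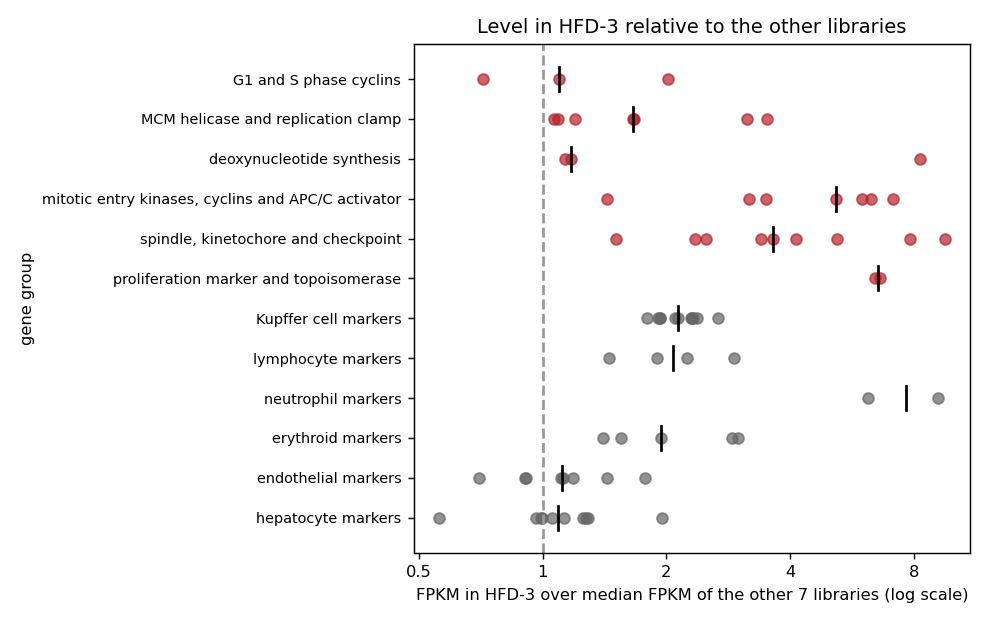
Ratio of HFD-3 to the median FPKM of the other 7 libraries, on a log axis, for the members by role and for marker genes of liver cell types. Nusap1 has the highest ratio of the members at 9.54, the 11 Kupffer cell markers lie between 1.79 and 2.67, and endothelial and hepatocyte markers scatter around 1.

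Markers of other cells moved in the same library, and their part in the result was not tested. All 11 Kupffer cell markers were highest in HFD-3, where they summed to 1286 CPM, against 456 to 732 CPM in the other 7 libraries. Clec4f, a Kupffer cell lectin, was at 58.9, 84.5, 182, 57.8 and 78.2 FPKM in HFD, against 75.9, 104 and 88.7 FPKM in ND. The sum of 8 neutrophil markers was 27.3 CPM in HFD-3 and 4.91 to 12.1 CPM in the other 7. In HFD-3, S100a8 was at 9.15 times and S100a9 at 6.18 times the median of the other 7. All 4 tested neutrophil markers were highest in HFD-3. Mpo was near the floor in every library, at 0 in HFD-3 and at most 0.0309 FPKM, in ND-3. Elane was at 0.0831 FPKM in HFD-3, at 0.0362 FPKM in ND-3 and at 0 elsewhere. The sum of 12 lymphocyte markers was 37.4 CPM in HFD-3 and 20.7 to 27.5 CPM in the other 7, and Cd3g was at 0 in HFD-3. Erythroid markers summed to 842 CPM in HFD-3, inside the range of 307 to 902 CPM of the other 7. Hepatocyte, endothelial, stellate and cholangiocyte sums were 149800, 385.5, 421.6 and 15.2 CPM in HFD-3, with the first 3 of these inside the range of the other 7 libraries and the cholangiocyte sum at its lower edge. No marker list had a gene passing the test between diets.

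The promoters of the members were searched for letters known from cell cycle genes, because many mitotic members were high together in HFD-3. The CHR element (TTTGAA or TTTAAA) is bound by the MuvB core of the DREAM and MYB complexes, CCAAT by NF-Y, and E2F sites (GCGGGAA or GCGCGAA) by E2F factors, mostly from work in human and mouse cells. RefSeq promoters of assembly GRCr8, from 250 bases before to 50 after the start, were at hand for 25 of the 32 genes, Ccnb2 included. A CHR was found on either strand in 18 of 25 (72.0%), against 28.3% of 33469 rat promoters, and CCAAT in 19 of 25 (76.0%), against 37.5%. An E2F match was found in 7 of 25 (28.0%), against 5.56%, and CHR and CCAAT together in 13 of 25 (52.0%), against 11.3%. Among measured members with a CHR, the lowest ratios in HFD-3 were 1.10 for Ccne1, 1.44 for Aurka and 1.51 for Bub1. The 15 measured members with a CHR and no E2F match had ratios of 1.10 to 9.54 with a median of 3.64, and the 5 with an E2F match and no CHR (Mcm3, Mcm5, Mcm6, Mcm7 and Rrm1) had 1.06 to 3.51 with a median of 1.66. Cdk1 and Mcm2 hold both, and Pcna and Tyms neither. Of the 5 with an E2F match and no CHR, Mcm7 and Rrm1 had medians of 4.64 and 6.50 FPKM in the other 7 libraries. Mcm3, Mcm5 and Mcm6 had medians of 0.548, 0.197 and 0.824 FPKM, with ratios of 3.14, 3.51 and 1.66. The ratio went with the level of the gene, and the part of the motifs in it was not tested.

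The 150 bases before the start of 4 genes of mitosis and proliferation and of 2 MCM genes are printed 5′ to 3′ to show these matches, which are in capitals on either strand. HFD-3 was above the other 7 libraries in all of them, and its ratio for Mcm5 (3.51) was close to that for Kif11 (3.40). They lie, in GRCr8, for Mki67 at chr1:199952594-199952743 on the minus strand, Cdk1 at chr20:19265143-19265292 on the plus strand, Nusap1 at chr3:127057145-127057294 on the plus strand, Kif11 at chr1:244536717-244536866 on the plus strand, Mcm5 at chr19:13488663-13488812 on the plus strand and Mcm6 at chr13:42404353-42404502 on the minus strand. CCAAT reads ATTGG on the other strand, TTTGAA reads TTCAAA, and the E2F letters read TTCCCGC or TTCGCGC, while TTTAAA reads the same on both.
Mki67: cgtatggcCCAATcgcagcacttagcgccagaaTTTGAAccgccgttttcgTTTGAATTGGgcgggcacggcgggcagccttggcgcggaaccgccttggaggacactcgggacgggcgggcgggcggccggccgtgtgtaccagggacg
Cdk1: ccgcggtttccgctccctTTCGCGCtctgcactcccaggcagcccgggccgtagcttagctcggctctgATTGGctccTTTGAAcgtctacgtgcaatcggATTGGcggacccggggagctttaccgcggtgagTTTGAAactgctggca
Nusap1: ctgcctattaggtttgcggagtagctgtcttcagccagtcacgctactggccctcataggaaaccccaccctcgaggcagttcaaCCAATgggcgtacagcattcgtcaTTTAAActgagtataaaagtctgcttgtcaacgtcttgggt
Kif11: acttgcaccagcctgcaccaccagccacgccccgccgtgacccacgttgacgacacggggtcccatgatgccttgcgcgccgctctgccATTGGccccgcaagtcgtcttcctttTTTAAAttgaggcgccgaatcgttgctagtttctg
Mcm5: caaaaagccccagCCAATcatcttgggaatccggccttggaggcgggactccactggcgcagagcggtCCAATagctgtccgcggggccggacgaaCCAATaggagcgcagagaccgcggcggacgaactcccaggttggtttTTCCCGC
Mcm6: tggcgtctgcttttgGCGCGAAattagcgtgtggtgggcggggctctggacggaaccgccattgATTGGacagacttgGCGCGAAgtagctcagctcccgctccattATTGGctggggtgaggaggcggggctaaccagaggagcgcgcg
In Mki67 the second CHR overlaps a reversed CCAAT, and no E2F match lies in the window. Within these windows Cdk1 holds 2 CHR matches, 2 reversed CCAAT and 1 E2F match, Nusap1 and Kif11 each hold 1 CHR of the TTTAAA form and 1 CCAAT, and Mcm5 and Mcm6 hold CCAAT and E2F matches but no CHR. A match is a description of letters and was not tested as a binding site.

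No tested gene on the wider cell cycle lists passed the edgeR test between diets either. Of 127 tested genes on 8 further lists (152 matched), 0 passed the edgeR test after adjustment, and 6 (4.72%) had an unadjusted p under 0.05, where 5.71% of all genes did. DESeq2 called 1 of 127 (Gadd45b, 0.787%), where it called 0.97% of all genes. Fitted values were higher in HFD for 86 (67.7%) and lower for 41, where 51.2% of all genes were higher. Other mitotic genes were higher in 30 of 33 (median log2 fold change 0.25), and in 21 of 33 with a median of 0.07 without HFD-3, which was the highest library for 22 of 33 (66.7%). Kif22, a chromosome-arm kinesin, was at 0.191, 0.222, 1.25, 0.187 and 0.138 FPKM in HFD, against 0.0704, 0.167 and 0.0835 FPKM in ND. Pkmyt1, a kinase that restrains CDK1, was at 0.176, 0.110, 0.390, 0.109 and 0.244 FPKM in HFD, against 0.0955, 0.109 and 0.0566 FPKM in ND. The abundant genes Mad1l1 and Bub3, both of the spindle checkpoint, had log2 fold changes of 0.14 and 0.04. Origin licensing and fork genes were higher in 13 of 32 with a median of -0.02, and in 14 of 32 with a median of -0.03 without HFD-3, which was the highest library for 8 of 32. Among them, Pole (log2 fold change -0.32), Rpa3 (-0.33) and Rfc1 (0.19) overlapped between diets.

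Most inhibitors and p53 targets had higher fitted values in HFD, where 51.2% of all genes did, and none passed the edgeR test. The 5 tested CDK inhibitors were all higher in HFD with a median of 0.42, and 4 of 5 with a median of 0.13 without HFD-3. Cdkn1a, which encodes p21, was at 1.78, 0.497, 5.04, 21.0 and 12.3 FPKM in HFD, against 1.92, 0.529 and 4.64 FPKM in ND. HFD-4 and HFD-5 carried the high values, and the other HFD livers spanned a range similar to that of the ND livers. Cdkn1c and Cdkn1b had log2 fold changes of 0.70 and 0.13. Of 12 genes tested among p53 targets and cell cycle brakes, 10 were higher with a median of 0.39, and 9 with a median of 0.33 without HFD-3. An unadjusted p under 0.05 was reached by 3 of the 12, where 5.71% of all genes reached it. Over the 8 further lists together it was 6 of 127 (4.72%). Gadd45b, a stress-induced brake, was at 2.91, 2.05, 13.3, 4.51 and 2.76 FPKM in HFD, against 1.68, 0.607 and 1.13 FPKM in ND. All 5 HFD livers were above the 3 ND livers, and the edgeR adjusted p was 0.63 for a log2 fold change of 2.04 (1.32 without HFD-3), where DESeq2 gave 0.0436. Mdm2, the ubiquitin ligase for p53, had a log2 fold change of 0.66 (adjusted p = 0.684), Tp53inp1 one of 0.30 and Gadd45g one of -0.89.

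The regulators upstream of the members were divided in direction. Of 17 tested genes of the RB, E2F and MYB circuits, 8 were higher and 9 lower with a median of -0.009, and 9 were higher without HFD-3. Over all genes 51.2% were higher. Tfdp1, Rbl2 and Lin52 had log2 fold changes of -0.28, -0.04 and -0.07. Myc, a driver of cell growth, was at 3.42, 5.04, 11.2, 6.85 and 4.25 FPKM in HFD, against 3.74, 2.97 and 2.31 FPKM in ND (log2 fold change 1.00, edgeR adjusted p = 0.799). HFD-3 was the highest, and HFD-1 lay inside the ND range. Among other cyclins and CDKs, 7 of 9 were higher with or without HFD-3, with Ccnd2, Cdk2, Cdk4 and Cks1b at log2 fold changes of 0.31, 0.22, -0.07 and 0.01. Deoxynucleotide supply genes were higher in 5 of 8 with a median of 0.004, and in 3 of 8 with a median of -0.13 without HFD-3. Tk2, the mitochondrial thymidine kinase, was at 6.12, 5.44, 7.84, 5.86 and 4.94 FPKM in HFD, against 4.37, 4.82 and 4.87 FPKM in ND (log2 fold change 0.35, adjusted p = 0.85). Rrm2b and Dut had log2 fold changes of 0.15 and -0.06. Checkpoint and repair genes were higher in 8 of 11, and in 6 of 11 without HFD-3, with Fanci, Xrcc2, Atm and Atr at 0.57, 0.43, -0.21 and 0.05.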

How the data were processed

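Each library came with raw gene counts (whole numbers) and FPKM, both made and deposited by the authors for Ensembl genes. The submitters' processing notes name TopHat2 2.0.9, Cufflinks 2.2.1, Cuffdiff and the genome build Rnor_6.0. They do not say which of these gave a given column, which annotation was used, or whether counting respected strand. FPKM recomputed from counts, totals and a fixed length per gene differed by at most 0.000764 in relative terms.

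Samples were grouped by title. The counts were fitted with edgeR 4.0.16 (TMM scaling, filterByExpr, quasi-likelihood test, R 4.3.3) on 14148 of 32545 genes, with Benjamini-Hochberg adjustment over all 14148 and a threshold of 0.05. The biological coefficient of variation was 26%. CPM were computed with TMM scaling, and fold changes are HFD over ND. Alternatives were DESeq2 1.42.0, limma voom 3.58.1, other scalings and filters, a replicate term, a depth term, and each library left out. The script was tested on simulated data. Within a diet, chi-square over its degrees of freedom was at least 23.4 for any pair of libraries, so no library was counted as a duplicate. The labels do not say how samples relate to animals beyond their number, so p-values measure the spread between these samples. Poisson intervals are exact at 95% and cover counting error only.

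The members and lists were chosen with earlier results of these data known. Genes were named from each further list as the 2 with the smallest p and the 2 with the highest FPKM. Of 234 list symbols, 225 matched. Members without a RefSeq promoter are Rrm2, Ccna2, Tpx2, Mcm4, Aurkb, Ccne2 and Ccnd1.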

Additional observations from a re-analysis of the deposited data

Results flagged for a closer look

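In 14 of the 31 members a single HFD library, HFD-3, lay so far above the other 4 HFD libraries that its gap to the next, divided by the range of the 5, exceeded 0.71. The gap was 0.97 of the range for Mki67, 0.964 for Rrm2, 0.935 for Top2a, 0.883 for Cenpf, 0.88 for Aurkb, 0.847 for Ccna2 and 0.846 for Cenpe. It was 0.832 for Mcm3, 0.816 for Plk1, 0.81 for Cdk1, 0.802 for Nusap1, 0.788 for Mcm5, 0.741 for Bub1b and 0.737 for Ccnb1. Among the genes named from the further cell cycle lists, Kif22 reached 0.925 and Gadd45b 0.782. Cell type markers were left out of this measure, although some also stood apart in HFD-3. Clec4f, for example, was at 182 FPKM in HFD-3 and at 57.8 to 84.5 FPKM in the other HFD libraries. Chance flags about 1 in 20 groups. That rate covers any of the 5 HFD libraries at either end, for which 7.22% of all tested genes were flagged. Among tested genes, HFD-3 was high by this measure in 7 of 23 members (30.4%) and in 3.47% of all genes, and the other 7 of the 14 had too few counts for the test. The Kupffer cell marker sum was also highest in HFD-3, at 1286 CPM against 456 to 732 CPM, and its part in the pattern was not tested.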

How the results depend on the processing

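With all 8 libraries 1 gene differed by diet, against 18 without the count filter, 137 by DESeq2 (69 higher, 68 lower), 2 by limma voom, 5 with a depth term and 0 to 9 with a library left out. Members passing stayed at 0 except for 1 (Kif11) by DESeq2, which gave no p for Mki67 and Top2a, and the further lists gave 1 by DESeq2 (Gadd45b). With a library left out, members passing were 0 each time, and the ratio of summed levels lay between 1.09 and 1.34. The members' median log2 fold change lay between -0.000129 and 0.659, over the 22 to 27 members that passed the filter in each fit. With all 8 libraries and no filter it was 0.444, over 31 members. Same-numbered libraries did not pair (correlations of deviations 0.112, -0.275 and 0.0735, and none of HFD-1, HFD-2 and HFD-3 correlated best with its own number). With a replicate block 0 genes differed and 23 of 23 members were higher in HFD. In that fit HFD-4 and HFD-5 had no ND library of their number. The diet difference thus rested on HFD-1 to HFD-3 against ND-1 to ND-3. Fitted values with the other sign, none passing, were as follows. Under the replicate block these were Mcm3 0.0726, Mcm4 0.0681, Pcna 0.091, Aurka 0.10, Cdkn1a -0.0539, Cks1b -0.0262, Mad1l1 -0.0398, Dut 0.054 and Tp53inp1 -0.11. With the depth term they were Mcm6 -0.0253, Pcna 0.0200, Cdkn1a -0.00153, Dut 0.00717 and Rbl2 0.00563, and with voom Mcm4 0.0164, Mcm6 -0.0154 and Lin52 0.00555. Pcna was 0.00604 with RLE, 0.017 without scaling, 0.00341 without the filter and 0.00396 by DESeq2. With each library left out the ranges were Ccne1 -0.0785 to 0.78, Ccne2 -0.00821 to 1.12, Mcm3 -0.58 to 0.17, Mcm4 -0.20 to 0.0868, Mcm5 -0.22 to 0.75, Mcm6 -0.23 to 0.17, Pcna -0.0754 to 0.11, Rrm1 -0.079 to 0.17 and Tyms -0.0102 to 0.088. They were Aurka -0.29 to 0.0328, Aurkb -0.0469 to 0.99, Cdc20 -0.0217 to 0.68, Cenpf -0.0255 to 0.82, Birc5 -0.0616 to 0.70, Cdkn1b -0.0415 to 0.27, Atr -0.13 to 0.14 and Cdk4 -0.18 to 0.00982. They were Cks1b -0.0983 to 0.23, Mad1l1 -0.0351 to 0.24, Bub3 -0.0186 to 0.11, Dut -0.15 to 0.12, Rbl2 -0.16 to 0.13 and Lin52 -0.27 to 0.0811. The causes were not tested. Depth limits the 8 untested members, which had at most 30 counts in a library.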

Other observations

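ND-3, the library that stood apart in clock genes, also had the lowest summed level of Ccnd1, Ccne1 and Ccne2. Their sum was 43.8, 22.8, 53.02, 33.9 and 28.6 CPM in HFD-1 to HFD-5, against 33.1, 26.7 and 10.3 CPM in ND-1 to ND-3. Most of the sum was Ccnd1 in every library. The part of the clock difference in this sum was not tested.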
